A study of Mus musculus with 4 samples.

Results

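The CCR4-NOT and PAN complexes shorten the poly(A) tails of mRNAs, and 10 of their subunit genes are described here by their ribosome footprints in E14 mouse embryonic stem cells: Cnot1, Cnot2, Cnot3, Cnot4, Cnot6, Cnot7, Cnot8, Cnot10, Pan2 and Pan3. They were found by gene name in a table of 25170 genes, and all 10 were in it. E14 is a wild-type line from the inner cell mass, and all cells were kept in serum and leukemia inhibitory factor on gelatin. 2 libraries came from cells kept in 1 µM PD, a compound the labels give only by this short name, and 2 from cells kept in DMSO, its solvent, both for 3 passages. The design text asks what Mek, a kinase upstream of ERK, does to gene regulation at the post-transcriptional level. Whether the libraries of a group are separate cultures is not stated in the labels, and the p-values below rest on a spread between libraries that may be technical.

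Removal of the poly(A) tail is the first and often the slowest step in the decay of an mRNA. PAN, made of the exonuclease PAN2 and its adaptor PAN3, acts on long tails that carry poly(A)-binding protein, and CCR4-NOT, a large assembly on the scaffold CNOT1, removes the rest. The bare 3′ end then allows decapping by the DCP2 enzyme with its cofactor DCP1A, or decay by the exosome. CNOT1, CNOT2 and CNOT3 are known in mouse embryonic stem cells as factors needed to keep the undifferentiated state.

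Ribosome profiling reads the fragments of mRNA left under ribosomes after nuclease digestion, so footprints depend on mRNA amount and on ribosome density, which cannot be told apart here, nor can fewer cells of a type from less RNA per cell. Values are FPKM, fragment counts divided by transcript length and library size, so levels can be compared between genes only roughly. How far the length used matches the part that ribosomes cover was not tested. Small RNA genes held 99.5% to 99.7% of the summed FPKM of each library. Since FPKM are divided by length, this is not their share of the reads. Sequencing depth, read from the values and with DMSO replicate 1 set to 1, was 0.464 and 0.201 in PD replicates 1 and 2 and 1.42 in DMSO replicate 2. Depth thus went with treatment, and its part in the results was not tested. Of 15 pluripotent stem cell markers, 13 had at least 1 FPKM in every library, with summed levels of 2770 and 4384 FPKM in PD and 2683 and 2641 FPKM in DMSO. Dppa5a made up much of these sums, with 1421 and 3203 FPKM in PD and 1414 and 1633 FPKM in DMSO, and the other 14 markers summed to 1350 and 1181 FPKM in PD and 1269 and 1008 FPKM in DMSO. 10 fibroblast and feeder markers summed to 2.2 to 4.67 FPKM per library and 8 primitive endoderm markers to 0.495 to 1.94 FPKM. 8 trophectoderm markers summed to 6.77 and 16.2 FPKM in PD and 9.06 and 17.6 FPKM in DMSO.

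The test covered 9741 genes whose mean reached 1 FPKM, all 10 members among them. With limma, 0 of the 10 members passed at an adjusted p of 0.05, against 0.0308% of all genes higher in PD, 0.226% lower and 0.257% in either direction. 0 members had an unadjusted p under 0.05, against 5.76% of all genes. The members' adjusted p-values ran from 0.837 to 0.999. In 3 members, Cnot2, Cnot4 and Cnot10, both PD libraries lay above both DMSO libraries, in 0 members both lay below, and in 7 the groups overlapped. Among all genes tested, 17.5% were separated with PD above and 18.3% with PD below, 35.8% in all, so 3 of 10 is near the background. Among protein-coding genes the shares were 17.1%, 18.9% and 36%. The members' median log2 difference, on the log2(FPKM + 1) scale and PD minus DMSO, was -0.03, against -0.02 for all genes tested. 5 members had a difference above 0 and 5 below. In 4 members, Cnot1, Cnot6, Cnot7 and Cnot8, both libraries numbered 2 lay above both numbered 1, and in 1, Pan2, they lay below, against 18% and 19.8% of all genes tested.

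**Figure D1:**
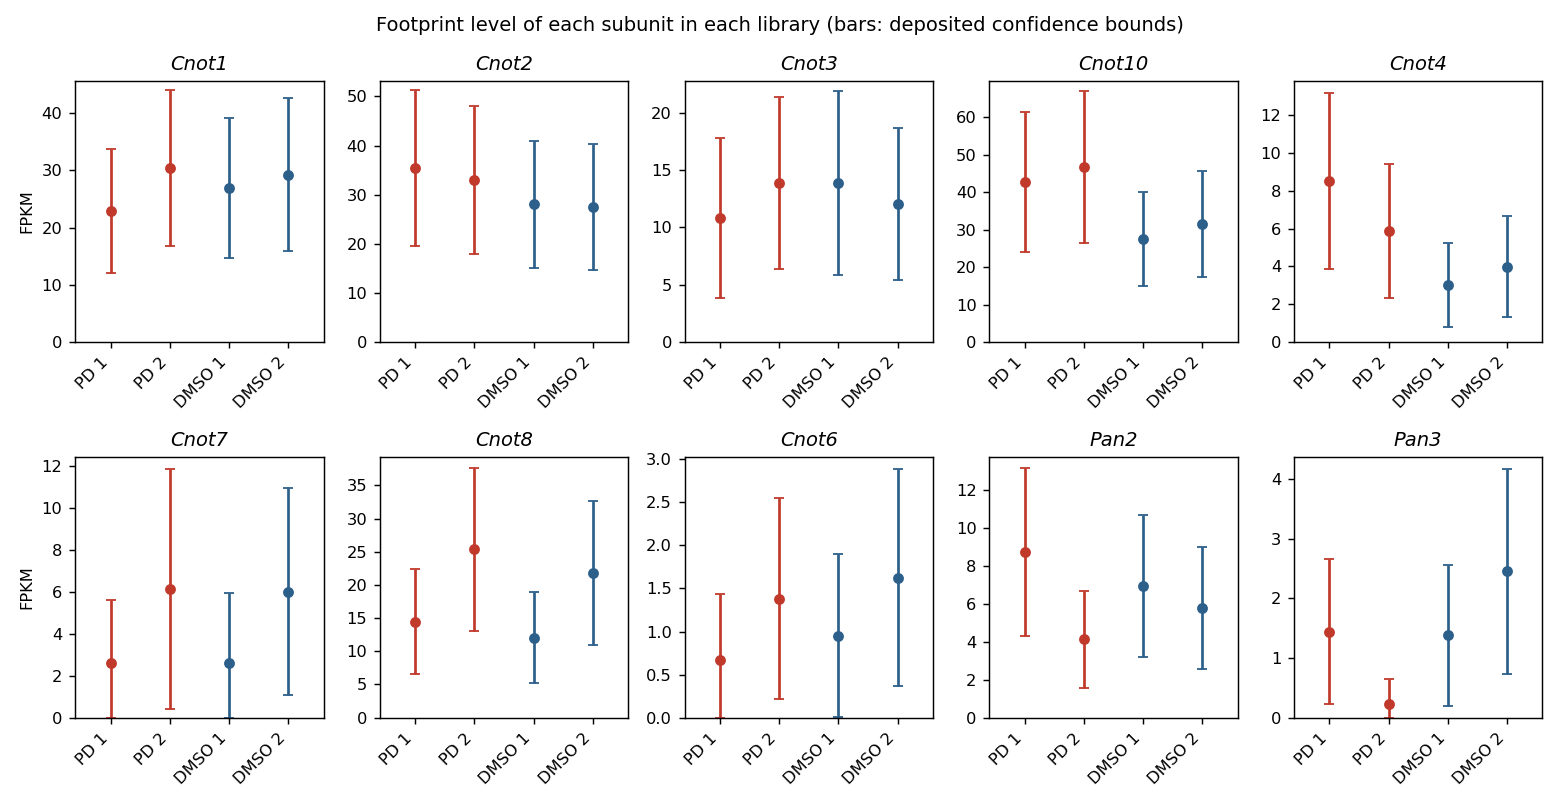
Footprint level (FPKM, vertical axes from 0) of the 10 members in the 2 PD libraries (red) and the 2 DMSO libraries (blue), with bars for the deposited confidence bounds of each value. Cnot2, Cnot4 and Cnot10 have both PD points above both DMSO points, and Pan3 has its lowest value in PD replicate 2.

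The promoters of the 3 members whose PD libraries lay above their DMSO libraries are shown. The number of separated members was near the background, since 35.8% of all genes tested were separated in either direction. Each window holds 300 bases around a gene start, from RefSeq (GRCm38.p6, the assembly that mm10 shows), 5′ to 3′ on the strand of the gene. Capitals mark CCGGAAG, a core that many ETS factors bind, and CACGTG, an E-box. Both were searched on both strands, do not overlap with each other, and were chosen after the sequences had been read. The first window is chr9:114640151-114640450 (minus strand), the second chr6:35133688-35133987 (minus strand) and the third chr10:116580487-116580786 (minus strand).
Cnot10: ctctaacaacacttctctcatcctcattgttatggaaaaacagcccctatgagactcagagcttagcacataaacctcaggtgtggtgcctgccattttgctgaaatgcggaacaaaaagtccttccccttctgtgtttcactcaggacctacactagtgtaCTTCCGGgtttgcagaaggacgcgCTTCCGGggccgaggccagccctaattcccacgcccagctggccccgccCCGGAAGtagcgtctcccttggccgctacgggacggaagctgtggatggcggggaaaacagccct
Cnot4: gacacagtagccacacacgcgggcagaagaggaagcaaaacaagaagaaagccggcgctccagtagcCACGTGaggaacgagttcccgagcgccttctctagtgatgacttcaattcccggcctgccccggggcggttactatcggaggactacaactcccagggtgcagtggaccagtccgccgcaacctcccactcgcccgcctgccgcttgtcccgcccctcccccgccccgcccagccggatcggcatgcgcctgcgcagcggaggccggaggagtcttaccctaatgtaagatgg
Cnot2: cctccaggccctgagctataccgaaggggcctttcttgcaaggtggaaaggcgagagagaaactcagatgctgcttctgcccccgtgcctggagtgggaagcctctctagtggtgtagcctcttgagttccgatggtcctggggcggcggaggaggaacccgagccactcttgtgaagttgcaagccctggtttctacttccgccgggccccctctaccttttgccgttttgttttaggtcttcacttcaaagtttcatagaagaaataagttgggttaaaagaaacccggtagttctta

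The Cnot10 window holds CCGGAAG at 3 places, which begin 88, 64 and 15 bases before the gene start, the last of them on the printed strand. The Cnot4 window holds 1 CACGTG, which begins 183 bases before the start, and the Cnot2 window holds neither motif. The Cnot2 window shown lies inside the deposited locus of the gene, which ends at 116581511. Another Cnot2 window, further inside the locus and not shown, holds neither motif as well. Promoter windows were matched for 8 of the 10 members, Cnot1 and Cnot7 being the others, in 12 windows. CCGGAAG was in 1 of these 8 members, against 9.93% of the 27025 genes in the promoter table, and CACGTG in 1 of 8, against 8.09%. Of all 32851 windows of the same length, 8.86% held CCGGAAG and 7.15% held CACGTG. These shares are for at least 1 copy, and the share of windows with 3 copies was not counted. These matches describe letters and do not show that a factor binds.

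Cnot1 encodes the scaffold on which the other subunits of CCR4-NOT assemble (mm10, chromosome 8, 95715913 to 95821728). Its footprints were at 22.9 and 30.4 FPKM in the PD libraries and at 26.9 and 29.3 FPKM in the DMSO libraries. The PD libraries bracketed the DMSO libraries, with the lowest and the highest value of the 4. Limma put the log2 difference at -0.09 ± 0.27 (SE, adjusted p = 0.966), and its 95% interval ran from -0.82 to 0.64. Its sign turned without PD replicate 1, at 0.11. The deposited locus of Cnot1 also takes in Setd6, a lysine methyltransferase gene whose annotated span overlaps that of Cnot1 and which had 21.1 and 5.53 FPKM in PD and 11 and 12.2 FPKM in DMSO. The locus also holds the microRNA gene Mir7073, which was listed at 0 and 3371 FPKM in PD and had 1697 and 2396 FPKM in DMSO. The long noncoding RNA gene 4930513N10Rik, in the same locus, had 3.18 and 1.24 FPKM in PD and 1.47 and 1.66 FPKM in DMSO. Whether the authors counted by strand is not stated, and how reads were divided between such neighbours was not tested.

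Cnot2 and Cnot3 encode the pair of subunits that form the NOT module at the end of the scaffold. Cnot2 (chromosome 10, 116485160 to 116581511) had 35.4 and 33 FPKM in PD and 28 and 27.5 FPKM in DMSO. Both PD libraries were higher, by a small margin, and the means were 34.2 ± 1.72 FPKM in PD and 27.8 ± 0.348 FPKM in DMSO (SD, n = 2). The log2 difference of Cnot2 came to 0.29 ± 0.23 (SE, limma adjusted p = 0.859). Cnot3 (chromosome 7, 3645269 to 3677553) had 10.9 and 13.9 FPKM in PD and 13.9 and 12 FPKM in DMSO, and the groups overlapped. Its log2 difference came to -0.07 ± 0.27 (SE, limma adjusted p = 0.974), and it turned to 0.10 without PD replicate 1 and to 0.03 without DMSO replicate 1. The deposited locus of Cnot3 also takes in Leng1 and Tmc4, with at most 3.24 and 1.3 FPKM in any library, and the microRNA gene Mir3572, which had 8876 and 3717 FPKM in PD and 5115 and 1233 FPKM in DMSO.

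Cnot10 encodes a subunit that, with CNOT11, binds the other end of the scaffold (chromosome 9, 114585874 to 114640200). It had 42.7 and 46.7 FPKM in the PD libraries and 27.6 and 31.6 FPKM in the DMSO libraries. Both PD libraries were above both DMSO libraries, with means of 44.7 ± 2.8 FPKM in PD and 29.6 ± 2.84 FPKM in DMSO (SD, n = 2), a ratio of 1.51. The log2 difference was 0.58 with an SE of 0.24, and its 95% interval ran from -0.07 to 1.24 (limma adjusted p = 0.837). Whole reads could be recovered for this gene: 255 and 121 in PD and 355 and 576 in DMSO. Counting error alone gave 95% Poisson intervals of 37.6 to 48.3 and 38.7 to 55.8 FPKM in PD and of 24.8 to 30.6 and 29.1 to 34.3 FPKM in DMSO. The counting intervals of the groups thus did not meet. They leave out the spread between libraries, and the share of all genes so separated was not counted. The deposited confidence bounds did meet, at 24 to 61.4 and 26.3 to 67 FPKM in PD and 15.1 to 40.1 and 17.4 to 45.7 FPKM in DMSO. The log2 difference of Cnot10 was above 0 in all 16 alternative settings, from 0.49 without DMSO replicate 1 to 0.68 without DMSO replicate 2. Settings of the variance, the genes tested or the block left it at 0.58. With both PD libraries above both DMSO libraries, leaving out 1 library could not turn its sign. It passed in none of the settings that kept all libraries.

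Cnot11, the partner of Cnot10 in the complex, had 12.9 and 14.7 FPKM in PD and 13 and 14 FPKM in DMSO, and its groups overlapped (log2 difference 0.03, limma adjusted p = 0.991). Its recovered reads were 85 and 42 in PD and 184 and 281 in DMSO. The ratio of Cnot10 to Cnot11 was 3.31 and 3.18 in PD and 2.13 and 2.26 in DMSO. The ratio was higher in both PD libraries, but an exact permutation test over 2 against 2 libraries cannot go below a two-sided p of 0.333, the value found here. Over the 4 pairs of subunits compared in this way the adjusted p was 0.444. The other pairs were Cnot8 with Cnot7, Pan2 with Pan3 and Cnot2 with Cnot3, the last with a ratio of 3.26 and 2.37 in PD and 2.02 and 2.29 in DMSO.

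**Figure D2:**
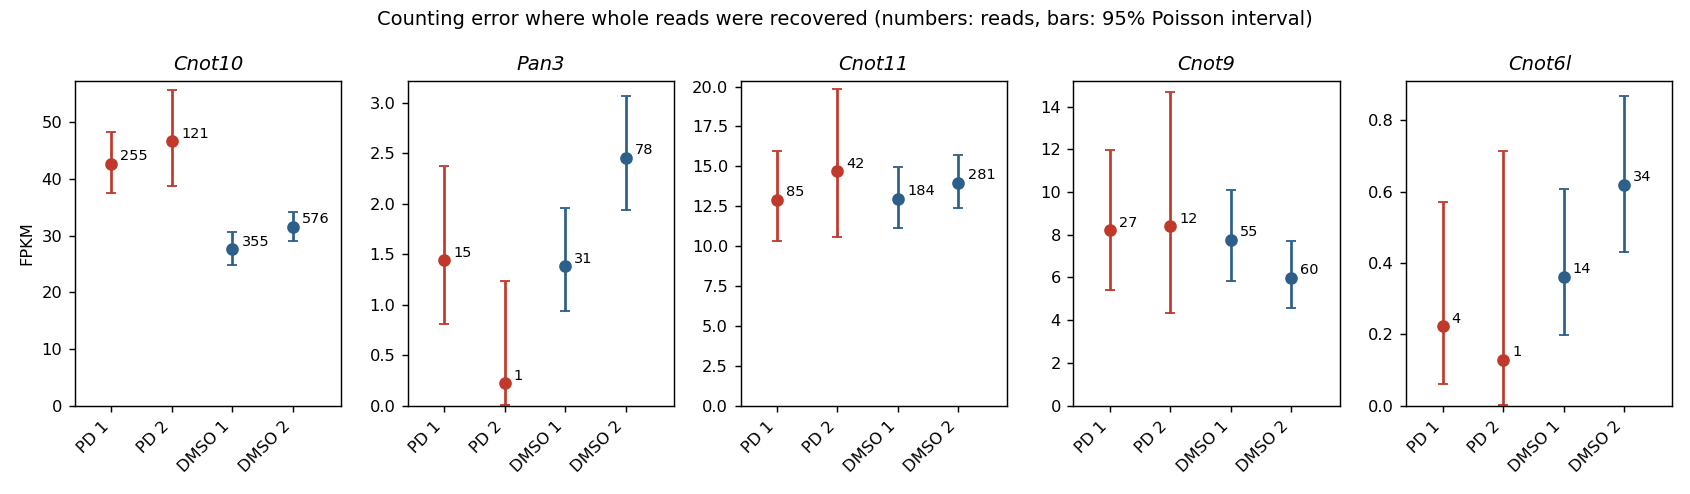
Level (FPKM, vertical axes from 0) of Cnot10, Pan3 and the non-members Cnot11, Cnot9 and Cnot6l in the PD (red) and DMSO (blue) libraries, with 95% Poisson intervals and the recovered whole reads beside each point. Recovered reads are lower limits, with 121 to 576 for Cnot10 and 1 for Pan3 in PD replicate 2. The PD and DMSO intervals of Cnot10 do not meet, but they leave out the spread between libraries.

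Cnot4 encodes a RING ubiquitin ligase that in mammals joins the complex only loosely (chromosome 6, 35022065 to 35133737). It had 8.53 and 5.86 FPKM in the PD libraries and 3.01 and 3.99 FPKM in the DMSO libraries. Both PD libraries were above both DMSO libraries, and the means were 7.2 ± 1.89 FPKM in PD and 3.5 ± 0.696 FPKM in DMSO (SD, n = 2), a ratio of 2.06. The log2 difference of 0.85 had an SE of 0.32 and a 95% interval from -0.01 to 1.72 (limma unadjusted p = 0.0517, adjusted p = 0.837). On the log2(FPKM + 1) scale it was the largest difference among the members, while with a pseudocount of 0.1 that of Pan3 was larger, at -1.47. The deposited bounds of single libraries overlapped between the groups, with 3.87 to 13.2 and 2.31 to 9.41 FPKM in PD and 0.791 to 5.22 and 1.3 to 6.68 FPKM in DMSO. The difference of Cnot4 was 0.62 without PD replicate 1 and 1.09 without PD replicate 2, the lowest and highest of the 15 alternatives that gave it a value. Settings of the variance, the genes tested or the block left it at 0.85. With both PD libraries above both DMSO libraries, leaving out 1 library could not turn its sign. It passed in none of the settings that kept all libraries.

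Cnot7 and Cnot8 encode the alternative CAF1-type exonucleases, of which a complex holds 1 or the other. They are paralogs, and whether the authors' counting shared reads between them was not tested. Cnot8 (chromosome 11, 58092794 to 58118597) had 14.5 and 25.4 FPKM in PD and 12 and 21.8 FPKM in DMSO. Cnot7 (chromosome 8, 40492538 to 40634792) had 2.58 and 6.12 FPKM in PD and 2.62 and 6 FPKM in DMSO. In both genes the libraries numbered 2 were higher than those numbered 1 in both treatments, so the spread within each group exceeded the difference between them. Cnot8 was above Cnot7 in every library, by a ratio of 5.6 and 4.15 in PD and of 4.59 and 3.64 in DMSO, with overlap between the groups.

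The log2 difference of Cnot7 came to 0.00 ± 0.54 (SE, limma adjusted p = 0.999), with a 95% interval from -1.43 to 1.44. That of Cnot8 came to 0.23 ± 0.44 (SE, limma adjusted p = 0.939), with an interval from -0.97 to 1.42. Intervals this wide do not show that the genes were alike in PD and DMSO. For Cnot7 the difference was -0.49 without PD replicate 2, -0.47 without DMSO replicate 1, 0.50 without PD replicate 1 and 0.48 without DMSO replicate 2. For Cnot8 it was -0.16, -0.18, 0.61 and 0.63 with the same libraries left out in turn, so both signs rest on single libraries. The deposited locus of Cnot7 also takes in Vps37a, whose annotated span overlaps that of Cnot7, and Mtmr7, which had 5.6 and 5.95 FPKM in PD and 5.33 and 4.56 FPKM in DMSO. Vps37a, an ESCRT-I subunit gene, had 0.151 and 3.65 FPKM in PD and 0.595 and 1.41 FPKM in DMSO, and was thus also higher in the libraries numbered 2. Its part in the values of Cnot7 was not tested.

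Cnot6 encodes a CCR4-type exonuclease, the other catalytic class of the complex (chromosome 11, 49671497 to 49712722). It had the lowest mean level of the members, with 0.673 and 1.38 FPKM in PD and 0.954 and 1.62 FPKM in DMSO. The groups overlapped, and the libraries numbered 2 were again the higher ones. Its log2 difference came to -0.18 ± 0.42 (SE, limma adjusted p = 0.95) and turned to 0.07 without PD replicate 1 and to 0.03 without DMSO replicate 2. Its paralog Cnot6l, which was too low to be tested, had 0.223 and 0.128 FPKM in PD and 0.362 and 0.62 FPKM in DMSO, from 4 and 1 recovered reads in PD and 14 and 34 in DMSO. Both PD libraries of Cnot6l were lower, but their counting intervals, 0.0607 to 0.571 and 0.00325 to 0.715 FPKM, overlapped those of DMSO, 0.198 to 0.607 and 0.429 to 0.867 FPKM. These intervals are the widest ones, as recovered reads are lower limits. Summed over Cnot6, Cnot7 and Cnot8, the exonuclease members of CCR4-NOT had 17.7 and 32.9 FPKM in PD and 15.6 and 29.4 FPKM in DMSO, most of it from Cnot8.

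Pan2 encodes the exonuclease of the PAN complex (chromosome 10, 128303335 to 128321358). It had 8.73 and 4.12 FPKM in PD and 6.93 and 5.77 FPKM in DMSO, so that the PD libraries held both the highest and the lowest value. The log2 difference of Pan2 came to -0.05 ± 0.41 (SE, limma adjusted p = 0.989). It was 0.41 without PD replicate 2 and -0.52 without PD replicate 1, and it also turned without DMSO replicate 1, to 0.06.

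Pan3 encodes a pseudokinase that brings PAN2 to poly(A)-binding protein and to the GW182 proteins of microRNA silencing (chromosome 5, 147430156 to 147548501). It had 1.44 and 0.221 FPKM in PD and 1.38 and 2.45 FPKM in DMSO. The value of PD replicate 2 was far below the rest, while PD replicate 1 lay between the DMSO libraries, so the groups overlapped. The recovered reads were 15 and 1 in PD and 31 and 78 in DMSO. These are lower limits, so the counting intervals are the widest ones. The single recovered read of PD replicate 2, the shallowest library, has a 95% Poisson interval of 0.0056 to 1.23 FPKM. This interval meets that of PD replicate 1, 0.806 to 2.38 FPKM, and that of DMSO replicate 1, 0.938 to 1.96 FPKM. It does not meet the 1.94 to 3.06 FPKM of DMSO replicate 2. The deposited bounds likewise kept only PD replicate 2 and DMSO replicate 2 apart, with 0 to 0.644 and 0.737 to 4.17 FPKM. Pan3 was the only member with a PD and a DMSO library so separated, against 5.38% of all genes tested.

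The log2 difference of Pan3 was -0.73 with an SE of 0.52 and a 95% interval from -2.12 to 0.66 (limma adjusted p = 0.837). It was -0.23 without PD replicate 2 and -1.23 without PD replicate 1, and thus depended on that library for most of its size. With a pseudocount of 0.1 it was -1.47. The ratio of Pan2 to Pan3 was 6.06 and 18.6 in PD and 5.02 and 2.35 in DMSO (two-sided exact permutation p = 0.333, adjusted p = 0.444 over 4 pairs). The higher of the PD ratios has the single recovered Pan3 read under it.

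**Figure D3:**
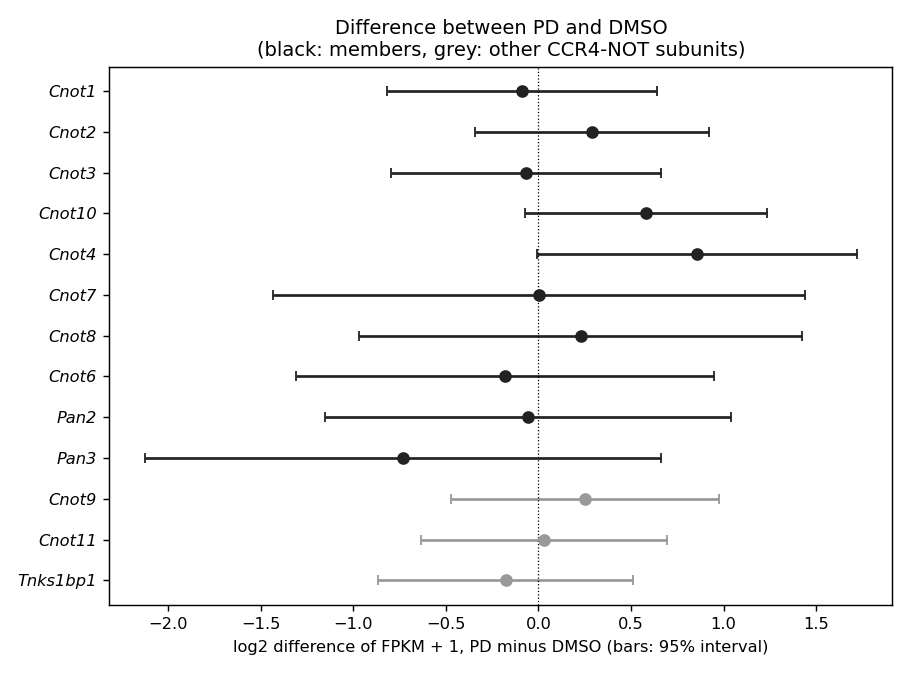
log2 difference of FPKM + 1 between PD and DMSO (horizontal axis) for the members in black and for the other tested CCR4-NOT subunits in grey, with 95% intervals from limma. Every interval crosses 0, and the lower end for Cnot4 is closest to it, at -0.01.

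Among the members, the mean footprint level over the 4 libraries ran from 37.1 FPKM for Cnot10 to 1.16 FPKM for Cnot6. The order was Cnot10, Cnot2, Cnot1, Cnot8, Cnot3, Pan2, Cnot4, Cnot7, Pan3 and Cnot6. Cnot10, Cnot2 and Cnot1, at 37.1, 31 and 27.4 FPKM, had ranges over the libraries that overlapped, and so did Cnot8 and Cnot3, at 18.4 and 12.7 FPKM. The ranges of Cnot1 and Cnot8 overlapped too, although Cnot1 was above Cnot8 in all 4 libraries. Cnot3 and Pan2 did not overlap, since the lowest Cnot3 value was 10.9 FPKM and the highest Pan2 value 8.73 FPKM. Pan2, Cnot4 and Cnot7, at 6.39, 5.35 and 4.33 FPKM, overlapped with one another. The lowest Cnot7 value, 2.58 FPKM, was above the highest Pan3 value, 2.45 FPKM, and Pan3 and Cnot6 overlapped. The scaffold and the NOT and N-terminal modules thus stood above the exonuclease genes Cnot7, Cnot6 and Pan2 in every library. Cnot8 was above Cnot3 in 3 of the 4 libraries and below Cnot1 in all 4.

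Set against 8897 protein-coding genes tested, with a median level of 6.33 FPKM, Cnot10 was at percentile 85.7 of mean level and Cnot6 at percentile 3.71. 6 members lay above the median. The levels within a gene were narrowest for Cnot3 and Cnot2, whose highest library was 1.28 and 1.29 times the lowest. They were widest for Pan3, at 11.1 times, and for Cnot4, at 2.84 times. Summed over the 8 CCR4-NOT members, footprints were at 138 and 163 FPKM in PD and 115 and 134 FPKM in DMSO, and Pan2 and Pan3 together had 10.2 and 4.34 FPKM in PD and 8.31 and 8.23 FPKM in DMSO. The CCR4-NOT sum was higher in both PD libraries, in which Cnot10 was the largest part, and the sums carry no test.

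**Figure D4:**
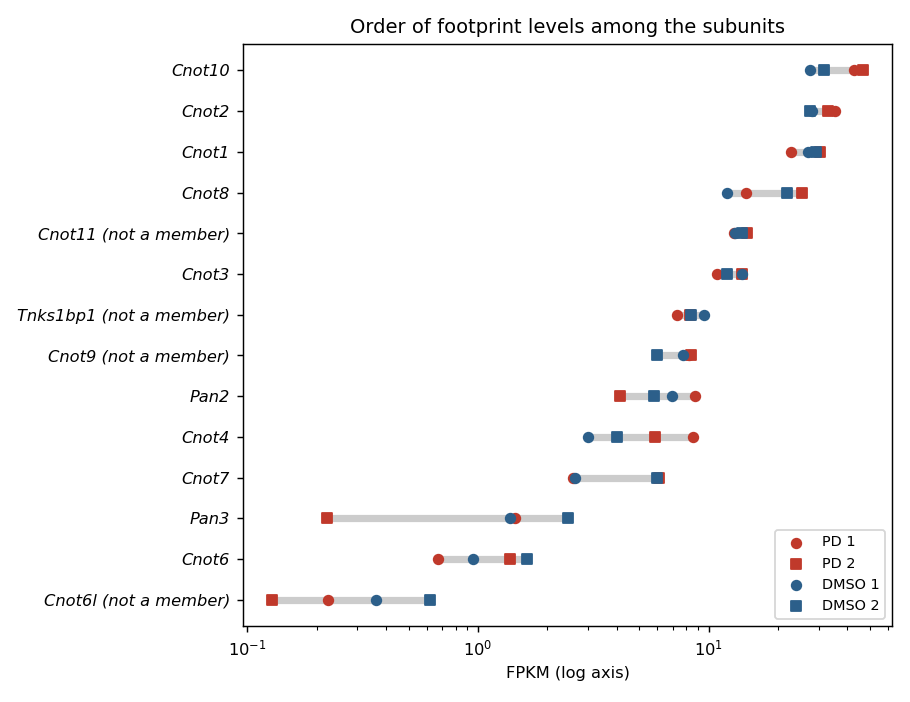
Footprint level (FPKM, log axis) of the 10 members and of the other CCR4-NOT subunits in each PD (red) and DMSO (blue) library, ordered by mean level from Cnot10 at the top to Cnot6l at the bottom. Grey bars join the lowest and highest library, and the bar of Pan3 is the longest among the members, from 0.221 to 2.45 FPKM.

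Of the CCR4-NOT subunits outside the members, 3 were tested and 0 passed. For this and the lists below, the background is all genes tested, with 17.5% higher in both PD libraries and 18.3% lower. Cnot9, the platform for adaptor proteins, had 8.21 and 8.4 FPKM in PD and 7.75 and 5.97 FPKM in DMSO, from 27 and 12 recovered reads in PD and 55 and 60 in DMSO. Both PD libraries of Cnot9 were above those of DMSO (log2 difference 0.25, limma adjusted p = 0.883). Tnks1bp1, a protein that copurifies with the complex, had 7.31 and 8.32 FPKM in PD and 9.51 and 8.42 FPKM in DMSO, with both PD libraries below (log2 difference -0.18, limma adjusted p = 0.918). The median of the 3 was 0.03.

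Other exonucleases that act on poly(A) or on similar 3′ ends were tested for 7 genes, of which 0 passed, 2 were higher in both PD libraries and 0 lower, with a median of -0.07. Pde12, a mitochondrial poly(A) exonuclease, had 8.68 and 12.3 FPKM in PD and 5.55 and 8.16 FPKM in DMSO (log2 difference 0.55, limma adjusted p = 0.837), and Angel2 had 6.07 and 5.19 FPKM in PD and 3.66 and 4.69 FPKM in DMSO. Toe1, which trims small nuclear RNAs, overlapped, with 13.1 and 5.94 FPKM in PD and 16.1 and 8.53 FPKM in DMSO. Angel1 overlapped too, with 5.36 and 4.12 FPKM in PD and 1.66 and 5.48 FPKM in DMSO.

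Of 29 listed proteins that recruit CCR4-NOT or PAN to mRNAs, 13 were tested and 0 passed, with 3 higher in both PD libraries, 3 lower and 7 overlapping, and a median of -0.04. Tob1, which links CAF1-type exonucleases to poly(A)-binding protein, had 10.5 and 13.9 FPKM in PD and 7.88 and 7.69 FPKM in DMSO (log2 difference 0.58, limma adjusted p = 0.837). Pum2, which binds the 3′ untranslated regions of mRNAs, had 9.3 and 10.2 FPKM in PD and 11.7 and 11.2 FPKM in DMSO. Samd4b, a Smaug family protein, was listed at 0 in PD replicate 2 and at 2.22 FPKM in PD replicate 1, against 3.4 and 2.69 FPKM in DMSO. Dazl, a germ cell RNA-binding protein, had 2.06 and 1.58 FPKM in PD and 0.797 and 1.07 FPKM in DMSO. Zfp36l1, which binds AU-rich elements, had 3.18 and 2.7 FPKM in PD and 4.66 and 4 FPKM in DMSO. The recruiting proteins thus lay on both sides of 0, and none passed.

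Poly(A)-binding proteins and their partners had 10 tested members, 0 that passed, 1 higher and 2 lower in both PD libraries, and a median of -0.15. Larp4b had 5.31 and 4.96 FPKM in PD and 5.85 and 9.83 FPKM in DMSO, and Gspt2, a termination factor that binds poly(A)-binding protein, had 7.72 and 6.55 FPKM in PD and 6.13 and 5.26 FPKM in DMSO. Paip2, an inhibitor of poly(A)-binding protein, Pabpn1 and Larp1 overlapped, with log2 differences of 0.41, -0.35 and -0.41. The terminal nucleotidyltransferases, which add bases to 3′ ends, had 5 tested members that all overlapped and a median of 0.05. Tent4b, Tut7, Tut4 and Mtpap had log2 differences from -0.26 for Tut7 to 0.29 for Tent4b.

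Partners that act after deadenylation, among them the decapping enzyme's cofactors and the LSM ring, had 16 tested members, 0 that passed, 3 higher and 2 lower in both PD libraries, and a median of -0.12. Ddx6, a helicase that binds CNOT1, had 25.1 and 36 FPKM in PD and 16.4 and 17.3 FPKM in DMSO (log2 difference 0.80, SE 0.29, limma adjusted p = 0.837). Lsm14b, which binds DDX6, had 13.4 and 16.1 FPKM in PD and 11 and 11.9 FPKM in DMSO. Lsm4, a subunit of the ring, had 71.1 and 65.1 FPKM in PD and 117 and 98.6 FPKM in DMSO (log2 difference -0.65, SE 0.25, limma adjusted p = 0.837). Lsm5 and Lsm7, of the same ring, were listed at 0 in PD replicate 2 and overlapped between the groups, with log2 differences of -0.72 and -0.86.

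**Figure D5:**
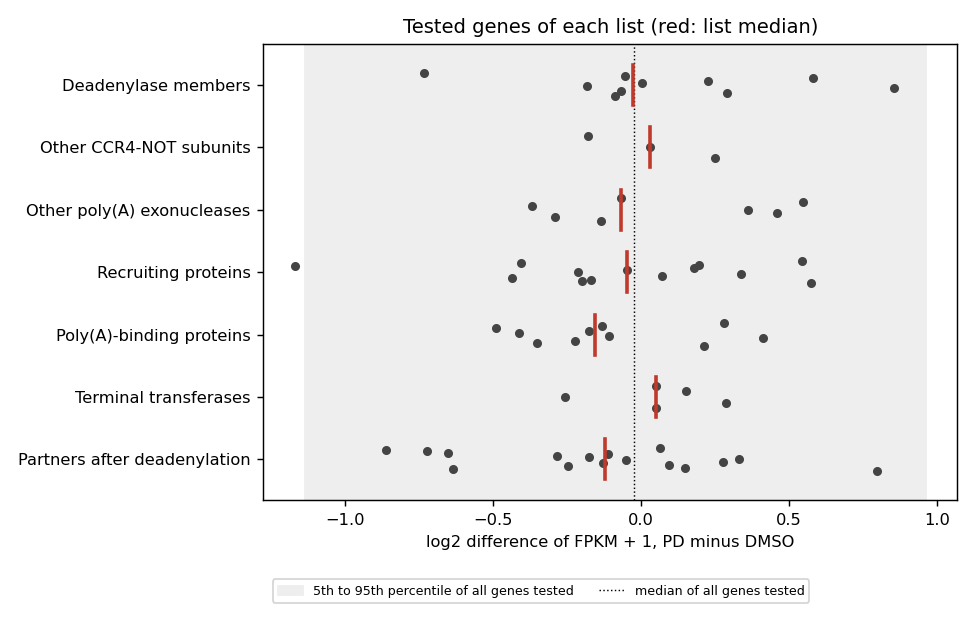
log2 difference of FPKM + 1 between PD and DMSO (horizontal axis) for each tested gene of the members and of 6 lists of partners, with the list median in red and the 5th to 95th percentile of all 9741 genes tested, -1.13 to 0.96, as the grey band. All 10 members lie within the band, from -0.73 for Pan3 to 0.85 for Cnot4.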

How the data were processed

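The deposited table gives FPKM with confidence bounds for each value, in the layout of Cufflinks, per the file headers. The build mm10 and the tools Bowtie2, STAR, Cufflinks, Trimmomatic and FastQC are named per the submitters' processing notes. Their versions, the use of strand, the sharing of reads that match several places and the level of the bounds are not given in the sources used here. Left out was 1 gene with a failed status, and 1 was added to each locus start.

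From these FPKM, log2(FPKM + 1) was computed and PD was compared with DMSO in limma 3.58.1 (R 4.3.3; eBayes, variance trend) over 9741 genes averaging 1 FPKM or more, with Benjamini-Hochberg adjustment and a threshold of 0.05. The procedure was tested on simulated data with known changes and independent normal noise. That check does not show how many real changes the test finds in these libraries. Differences on this scale understate those of low genes. Since FPKM come in steps of 1 read per gene and library, relative depth and whole reads could be recovered: 73.9% of 10161 genes came out whole in all libraries (tolerance 0.02 reads), against 2.54% with wrong steps. Recovered reads are lower limits, as true reads may be a multiple. Among the members only Cnot10 and Pan3 had them, and elsewhere the depth is unknown. Poisson intervals hold counting error alone.

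Partners named in the text were, per list, up to 4 tested genes with the largest differences and those averaging at least 5 FPKM whose groups did not overlap; 1 of these is not reported here. The members and lists were chosen with earlier results of these data known, and the ratios of subunits after values were seen. Alternatives were other pseudocounts, filters, scalings and variance settings, voom on recovered reads, a replicate block and leaving out each library. Gene types and promoters came from RefSeq (GRCm38.p6), which held 25083 of 25170 symbols.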

Additional observations from a re-analysis of the deposited data

How the results depend on the processing

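No member passed (limma) in any alternative that kept all libraries. Over the 16 alternatives, 137 of 149 member values kept their direction. Many of these could not turn, since settings of the variance, the genes tested or the block leave a member's difference as it was. Nor could leaving out 1 library turn that of Cnot2, Cnot4 or Cnot10, whose groups did not overlap. The cause of the changes in direction was not tested. Leaving out single libraries gave ranges of -0.28 to 0.11 for Cnot1, -0.23 to 0.10 for Cnot3, -0.44 to 0.073 for Cnot6, -0.49 to 0.50 for Cnot7, -0.18 to 0.63 for Cnot8 and -0.52 to 0.41 for Pan2. Rescaling without small RNA genes gave Cnot7 -0.018. The members' median was 0.23 with a filter of 5 FPKM, which tests fewer members, and -0.20 to 0.18 without single libraries. Members higher in PD without overlap were 0 by the deposited bounds, an alternative chosen after seeing the data, and 3 to 6 without single libraries, where 1 to 4 were lower; of all genes tested, 29.8% to 35.9% were then higher and 31.4% to 38.6% lower. Of all genes, 3 passed higher and 22 lower in PD, against 0 and 0 among protein-coding genes and 0 and 0 with voom; unadjusted p under 0.05 held for 609 and 418 genes. Without single libraries, 0 to 27 passed higher and 0 to 20 lower, with 27 and 20 without PD replicate 2. The median of other CCR4-NOT subunits was -0.073 with no filter. That of other exonucleases was -0.15 and -0.14 with pseudocounts of 0.1 and 0.5, -0.14 with the 5 FPKM filter, 0.0057 with quantile normalization, -0.18 with voom and 0.046 to 0.27 without single libraries. That of partners after deadenylation was -0.19 with a pseudocount of 0.1, -0.024 with quantile normalization, 0.070 with voom and -0.021 to 0.017 without single libraries. Poly(A)-binding proteins gave -0.084 with quantile normalization and -0.18 to 0.0082 without single libraries, recruiting proteins 0.27 with the 5 FPKM filter and 0.085 with voom, and terminal nucleotidyltransferases -0.14 to 0.27 without single libraries. Same-numbered libraries deviated together at r = 0.0992 over 9741 genes and 0.203 over 8897 protein-coding genes, across genes that are not independent, and share only a number; with the replicate block, 2 genes passed higher, 17 lower and 0 members.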
